A study of Bos taurus with 18 samples.

Results

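The mitochondrial genome of cattle encodes 13 proteins of the respiratory chain, and the transcripts of 9 of them were followed here across 18 RNA sequencing libraries. The 9 are ND1, ND2, ND4 and ND5 of complex I, CYTB of complex III, COX1, COX2 and COX3 of complex IV, and ATP6 of complex V. They were chosen by gene name among the 24596 rows of the deposited count table. Of the 9, 7 matched by name, with or without an MT- prefix, and 2 matched by another symbol, because the table calls COX2 COII and CYTB MT-CYB. The other 4 protein-coding rows of the mitochondrial genome, ND3, ND4L, ND6 and ATP8, are given beside them.

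The libraries came from cultured bovine fibroblasts that the submitters call Holstein-like and Simmental-like. The study followed cells from both breeds through long culture, and compared primary, senescent and spontaneously immortalized stages. In the Simmental-like line the stages are labelled PBF-13 (primary), Sn-BF-13 (senescent) and HUN-BF-13 (immortalized), with 3 libraries each. In the Holstein-like line they are PBF-15, Sn-BF-15 and HUN-BF-15, also with 3 libraries each. No gene was introduced or deleted at any stage, as far as the labels say, and age and sex are not part of the labels used here. The columns of a line also carry another culture name at each stage. For Simmental-like cells these are BDF-20-3B-4 at the primary, BDF-20-MultiXray-Ctrl at the senescent and BF-13 at the immortalized stage, and for Holstein-like cells BEF at the primary, BF-15-P9 at the senescent and BF-15-P23 at the immortalized stage. Stage and named culture cannot be told apart. All 9 Holstein-like column names also end in Rerun and no Simmental-like one does, so line and this label cannot be told apart either. The column names do not say what was rerun. Replicates are labelled biological, but nothing says that they came from separate cultures, so a p-value here reflects library-to-library spread that could be technical.

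As background, the mitochondrial genome is copied into long RNAs that span many genes, which are cut into single messengers mostly at the tRNAs that lie between the genes. Nearly all of its messengers come from one strand, so that their unequal levels are set largely after transcription. Its proteins are core subunits: the ND proteins sit in the membrane arm of complex I, which passes electrons from NADH to ubiquinone, and CYTB carries the quinone sites of complex III. COX1 and COX2 hold the metal centres of complex IV, where oxygen is reduced, COX3 lies beside them, and ATP6 forms part of the proton channel of the ATP synthase. All other subunits of these complexes are encoded in the nucleus.

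Total counts per library, in units of 1e+06, ran from 18.2 to 23.2 in the Simmental-like line, from 10.98 to 14.1 in the Holstein-like senescent and immortalized libraries and from 1.42 to 1.47 in the Holstein-like primary libraries. A member's share of a library was known to within 4.87% of its value or better (95% Wilson interval, counting error only). Markers of cultured fibroblasts (8 genes, all above 0 in each Simmental-like library) took 4.03 to 6.43% of Simmental-like counts. Marker lists of 9 other cell types took at most 0.0431% there, the highest being smooth muscle and pericyte. The Holstein-like libraries went against their labels. Skeletal muscle markers took 17.2 to 17.4% in the 3 primary libraries, liver markers took 13.8% and 13.1% in senescent libraries 2 and 3 and 12.9% in immortalized library 1, heart markers took 2.95% in senescent library 1, and kidney markers took 1.22% in immortalized library 2. Fibroblast markers passed 1% in 1 of the 9, immortalized library 3, with 6.27%. The 3 Holstein-like primary libraries also lay close to each other (chi-square per gene of their counts 1.21 to 1.23, where counting noise alone gives about 1). The Holstein-like libraries are therefore given one by one in what follows, and stage tests on them were not run. Means over them stand only beside the differences between the lines that close the text.

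The 9 transcripts together took from 1.97 to 26.3% of a library, a 13.3-fold range. In the Simmental-like line their summed share of the column total was 9.28%, 2.33% and 2.92% in primary libraries 1, 2 and 3. It was 2.20%, 2.17% and 2.38% in the senescent libraries and 1.97%, 1.99% and 2.55% in the immortalized libraries. Primary library 1 stood apart from the other 8 Simmental-like libraries, which lay between 1.97% and 2.92%. Its sum was 3.53-fold the mean of primary libraries 2 and 3, and its members ranged from 3.34-fold (ND4) to 3.78-fold (COX3). The senescent mean was 0.857-fold the mean of primary libraries 2 and 3. In the same library the fibroblast markers took 4.74%, against 6.43% and 5.95% in primary libraries 2 and 3. TFAM, which packages mitochondrial DNA and helps start its transcription, had 2.72 counts per 1e+06 counts (CPM) there, against 14.2 and 8.05 CPM (singled out after its values were seen). The part of either in the high share was not tested. Over genes at large the 3 primary libraries also differed beyond counting noise. Their chi-square per gene was 370 and 190 for library 1 against 2 and 3, and 41.8 between libraries 2 and 3. A higher share could come from more mitochondrial RNA per cell, a different make-up of cells or a technical difference of the library. In bulk RNA these cannot be told apart.

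In the Holstein-like libraries the summed share was 5.67%, 5.75% and 5.76% in primary libraries 1, 2 and 3, where skeletal muscle markers were abundant. It was 26.3%, 5.07% and 3.05% in senescent libraries 1, 2 and 3, and 4.18%, 16.9% and 6.65% in immortalized libraries 1, 2 and 3. The library with the heart markers held the highest share of all 18 and the library with the kidney markers the next. The 3 libraries with liver markers held between 3.05% and 5.07%. Library 1 of the senescent group held 4.60-fold the mean of the 3 muscle-rich libraries. Each value is a single library of its kind for heart and kidney, with no replicate check.

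**Figure D1:**
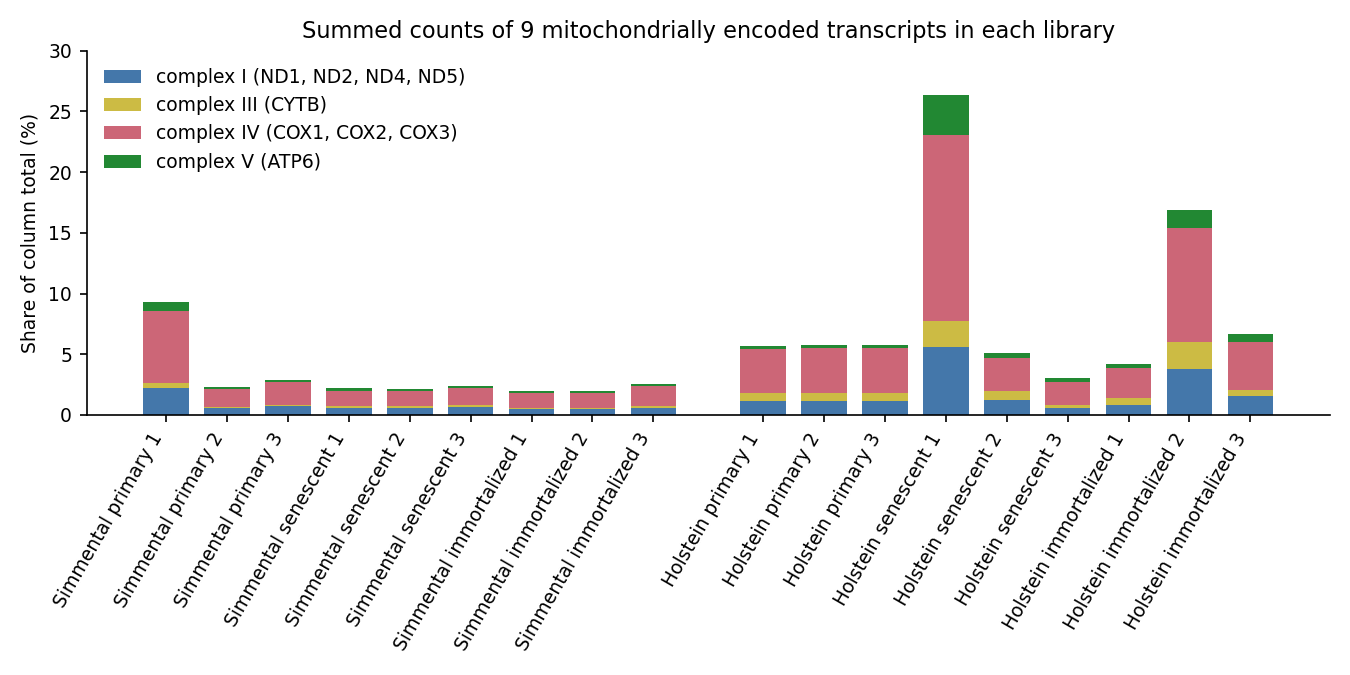
Summed counts of the 9 transcripts as a percentage of each library's total, with bars stacked by respiratory complex and libraries ordered by stage within each line. Among Simmental-like libraries primary 1 reaches 9.28% and the other 8 lie between 1.97% and 2.92%, while Holstein-like senescent 1 reaches 26.3% and immortalized 2 reaches 16.9%.

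Values of the complex I members in the Simmental-like libraries are percentages of the column total, in the order of primary, senescent and immortalized libraries. Levels are not compared between genes, because the counts are not corrected for gene length. ND1, the subunit next to the quinone site, took 0.510%, 0.124% and 0.159%, then 0.123%, 0.121% and 0.133%, then 0.0992%, 0.0983% and 0.127%. ND2, a proton-pumping subunit, took 0.536%, 0.131% and 0.174%, then 0.116%, 0.111% and 0.126%, then 0.112%, 0.109% and 0.142%. For ND2 every senescent library lay below every primary library, and for ND1 the stages overlapped. ND4, also a proton-pumping subunit, took 0.602%, 0.161% and 0.199%, then 0.161%, 0.159% and 0.175%, then 0.125%, 0.127% and 0.166%. ND5, the outermost pumping subunit, took 0.536%, 0.147% and 0.171%, then 0.185%, 0.183% and 0.199%, then 0.137%, 0.137% and 0.178%. All senescent libraries lay above primary libraries 2 and 3 for ND5, and below primary library 1, while the immortalized libraries lay below the senescent ones.

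CYTB of complex III took 0.444%, 0.116% and 0.140% at the primary stage, 0.145%, 0.142% and 0.160% at the senescent stage and 0.122%, 0.124% and 0.160% at the immortalized stage. As for ND5, the senescent libraries lay above primary libraries 2 and 3 and below primary library 1. In complex IV, COX1 took 3.84%, 1.00% and 1.21%, then 0.858%, 0.864% and 0.928%, then 0.809%, 0.825% and 1.04%. COX2 took 0.814%, 0.174% and 0.258%, then 0.113%, 0.110% and 0.123%, then 0.133%, 0.126% and 0.165%. COX2 was the member whose 3 stages did not overlap in any pairing: the primary libraries were highest, the immortalized libraries next and the senescent libraries lowest. COX3 took 1.29%, 0.307% and 0.379%, then 0.305%, 0.296% and 0.335%, then 0.287%, 0.295% and 0.378%. ATP6 of complex V took 0.699%, 0.170% and 0.223%, then 0.190%, 0.187% and 0.200%, then 0.151%, 0.152% and 0.192%. For COX3 the stages overlapped in every pairing, as they did for ATP6.

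**Figure D2:**
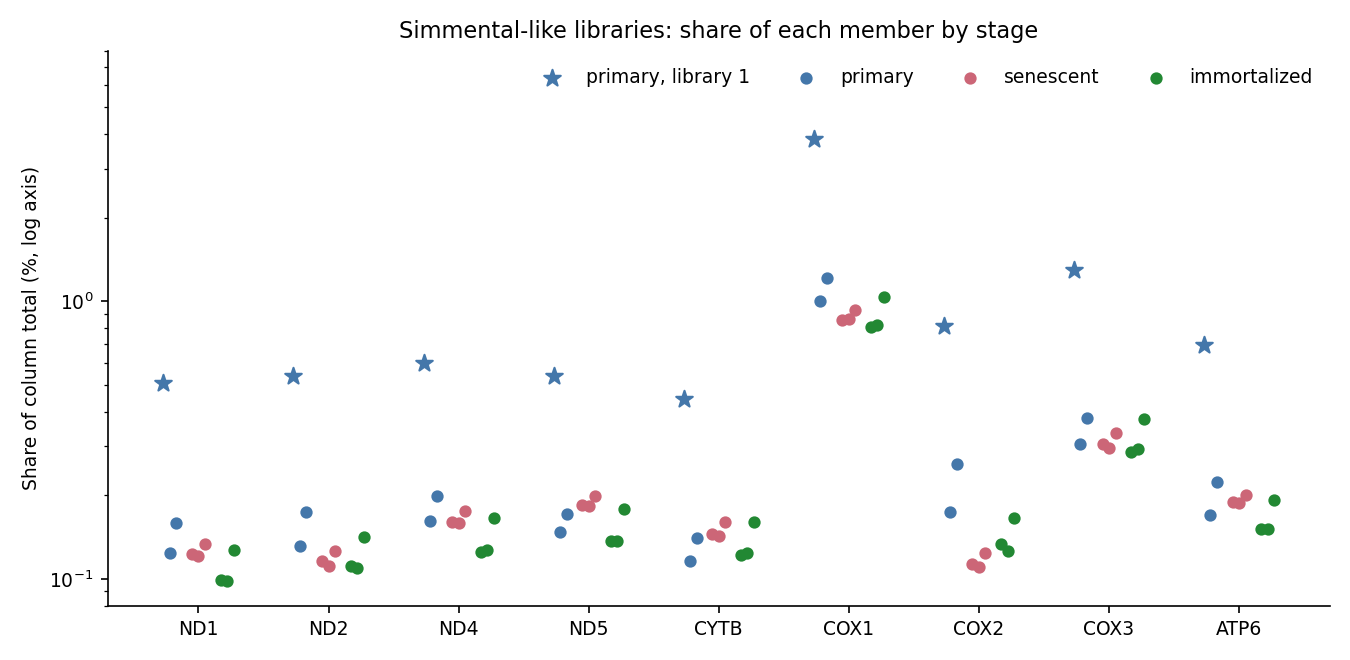
Share of the column total (log axis, percent) of each of the 9 members in the Simmental-like libraries, 3 libraries per stage, with primary library 1 drawn as a star. Primary library 1 lies above the other 8 libraries for all 9 members, and the senescent libraries are lowest for COX2 and above primary libraries 2 and 3 for ND5 and CYTB.

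The first comparison asks which members differed between senescent and primary Simmental-like cells. With TMM scaling, which sets libraries on a common scale through genes that differ little, 7 of the 9 members fell in senescent cells and none rose (edgeR quasi-likelihood test, Benjamini-Hochberg adjusted over 13099 genes, threshold 0.05). Of all genes 29.7% fell and 28.3% rose. COX2 fell most, to 999 ± 60.7 CPM in senescent cells, against 5361 ± 5106 CPM in primary cells (TMM-scaled, SD, n = 3 each), a log2 change of -2.42 ± 0.59 (SE, adjusted p = 0.00816). ND2 followed with -1.83 ± 0.55 (edgeR adjusted p = 0.0200) and COX1 with -1.77 ± 0.54 (edgeR adjusted p = 0.0216). COX3 (-1.66), ND1 (-1.65), ND4 (-1.53) and ATP6 (-1.49) also fell, with edgeR adjusted p-values between 0.0308 and 0.0419. CYTB (-1.22, edgeR adjusted p = 0.0761) and ND5 (-1.16, edgeR adjusted p = 0.0828) did not pass. The median over the 9 members was -1.65, and over all genes it was 0.01.

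The sizes of these changes rested largely on primary library 1. Without it the same 7 members fell, and 34% of all genes fell, but the log2 changes were smaller: -1.29 ± 0.18 for COX2 (edgeR adjusted p = 0.000194), -0.76 ± 0.15 for ND2 and -0.71 ± 0.14 for COX1, with a median over the 9 of -0.52. The scaling mattered as well. On the scale of total counts, which is that of the shares above, the median of all genes was 0.47 and 3 of the 9 members fell, COX2 (-1.84 ± 0.50, edgeR adjusted p = 0.0132), ND2 (-1.25 ± 0.46, edgeR adjusted p = 0.0448) and COX1 (-1.19 ± 0.46, edgeR adjusted p = 0.04997), where 14.1% of all genes fell and 45.4% rose. These were also the 3 whose senescent and primary libraries did not overlap, which held in this direction for 15.5% of all genes. No member was higher in all senescent than in all primary libraries, where 53.7% of all genes were. Without primary library 1 the same 3 fell on the total-count scale, COX2 by 0.90, ND2 by 0.37 and COX1 by 0.33, where 17.6% of all genes fell and 52.3% rose. There CYTB and ND5 had positive values that did not pass, 0.22 ± 0.13 (edgeR adjusted p = 0.175) and 0.25 ± 0.13 (edgeR adjusted p = 0.106). COX2 fell by more than any other member under each of these 4 settings.

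Marker genes moved between the same stages. Of the 8 fibroblast markers 7 fell and 1 rose in senescent against primary cells (median log2 change -0.97), where 29.7% of all genes fell and 28.3% rose. On the total-count scale 3 fell and 1 rose, where 14.1% of all genes fell and 45.4% rose. Their summed share was 4.03 to 4.09% in senescent libraries, against 4.74 to 6.43% in primary libraries. Between immortalized and senescent cells 3 of the 8 rose and 1 fell, where 16.4% of all genes rose and 16.1% fell. The summed share was 5.17 to 5.86% in immortalized libraries. Of the heart markers 3 of 4 tested rose in senescent cells and 0 fell, as did 3 of 4 tested endothelium markers, where 28.3% of all genes rose. Yet the heart list summed to at most 0.000793% and the endothelium list to at most 0.00134% of any Simmental-like library. The smooth muscle and pericyte list took 0.0328 to 0.0431% in primary, 0.0141 to 0.0151% in senescent and 0.00538 to 0.00573% in immortalized libraries. No marker of these 4 lists was at 0 in all 9 libraries. MYH2 of skeletal muscle, HBB of red cells and AHSG, APOB and FGA of liver were. The part of the marker changes in the mitochondrial values was not tested.

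**Figure D3:**
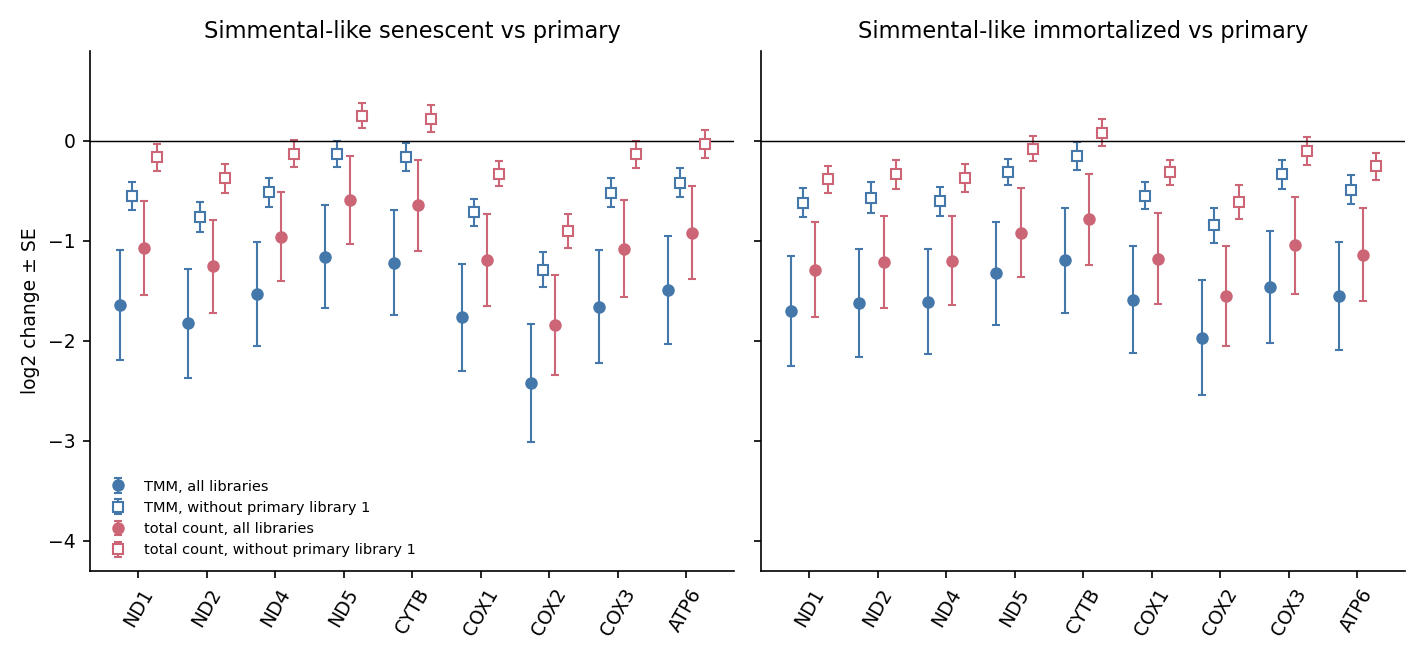
Log2 change ± SE of each member between senescent and primary (left) and between immortalized and primary Simmental-like libraries (right), under TMM or total-count scaling, with all 9 libraries (filled) or without primary library 1 (open). For senescent against primary, COX2 lies between -2.42 and -0.90 over the 4 settings, while ND5 and CYTB lie between -1.22 and 0.25.

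The next comparison asks what differed between immortalized and senescent Simmental-like cells. None of the 9 members passed under TMM scaling (0 by edgeR, 0 by DESeq2, 0 by limma-voom, and 0 at an unadjusted edgeR p under 0.05), while 16.4% of all genes rose and 16.1% fell. COX2 had the highest value, 1368 ± 207 CPM in immortalized cells against 999 ± 60.7 CPM in senescent cells, a log2 change of 0.45 ± 0.56 (edgeR adjusted p = 0.574). The other 8 lay between -0.17 (ND5) and 0.20 (ND2). All samples shared 1 estimate of spread per gene in this fit, including that of the primary libraries. Without primary library 1 COX2 rose by 0.44 ± 0.16 (edgeR adjusted p = 0.0379), where 28.7% of all genes rose and 29.9% fell. On the total-count scale without that library COX2 had 0.29 ± 0.15 and did not pass (edgeR adjusted p = 0.128), and ND5 fell by 0.33 (SE 0.11, edgeR adjusted p = 0.0317), where 39.3% of all genes fell. Immortalized and senescent shares did not overlap for COX2, which was higher in all immortalized libraries, and for ND5, which was lower in all of them. This held in the higher direction for 25.4% and in the lower direction for 46.1% of all genes.

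Between immortalized and primary Simmental-like cells 6 of the 9 members fell under TMM scaling, and none rose, where 25.5% of all genes fell and 24.9% rose. COX2 fell by 1.97 ± 0.58 (edgeR adjusted p = 0.0208), ND1 by 1.70 ± 0.55 (edgeR adjusted p = 0.0308) and ND2 by 1.62 ± 0.54 (edgeR adjusted p = 0.0349). ND4 (-1.61), COX1 (-1.59) and ATP6 (-1.55) fell with edgeR adjusted p-values between 0.0315 and 0.0410. COX3 (-1.46), ND5 (-1.33) and CYTB (-1.20) did not pass. Without primary library 1 the same 6 fell, by 0.49 (ATP6) to 0.85 (COX2), where 31.4% of all genes fell. On the total-count scale COX2 (-1.55) and ND1 (-1.29, edgeR adjusted p = 0.0486) fell, where 16% of all genes fell and 35% rose. Without primary library 1 COX2 (-0.61), ND1 (-0.39) and ND4 (-0.37, edgeR adjusted p = 0.0410) fell on that scale, where 22% of all genes fell and 42% rose. COX2 was also the one member whose immortalized and primary shares did not overlap, which held in the lower direction for 17.1% and in the higher direction for 41.3% of all genes. Both comparisons with primary cells share the same 3 primary libraries.

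Ratios between members within a library do not depend on how libraries are scaled. In primary library 1 the ratio to COX1 lay within the range of primary libraries 2 and 3 for 4 of the 8 other members and outside it for 4. The log2 ratio of COX2 to COX1 was -2.24, -2.53 and -2.23 in primary libraries 1, 2 and 3, and that of CYTB to COX1 was -3.11, -3.12 and -3.11. COX3 to COX1 set library 1 apart, at -1.57, against -1.71 and -1.68 in libraries 2 and 3. The composition of the pool differed between the stages. The log2 ratio of ND5 to COX1 was -2.22 ± 0.01 in senescent cells, against -2.81 ± 0.04 in primary cells (SD, n = 3 each), a 1.51-fold higher ratio. CYTB to COX1 was -2.57 ± 0.03 in senescent cells, against -3.11 ± 0.00075 in primary cells, a 1.46-fold higher ratio. COX2 to COX1 was -2.93 ± 0.03 in senescent cells, against -2.33 ± 0.17 in primary cells, which is 0.660-fold. ND5 and CYTB therefore stood higher, and COX2 lower, relative to COX1 in every senescent library than in any primary library. ATP6 (1.22-fold), ND4 (1.16-fold), COX3 (1.11-fold) and ND1 (1.10-fold) also had higher ratios without overlap, and ND2 overlapped. Groups without overlap were common, at 73.9% of all genes for the ratio to COX1 between these stages, against 7 of the 8 members, so the count is described and not tested.

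In immortalized cells the mean ratio to COX1 lay between those of the other stages for COX2, ND5, CYTB, ATP6 and ND2. It was lowest of the stages for ND1 and ND4 and highest for COX3. ND1 to COX1 was 0.852-fold that of senescent and 0.941-fold that of primary cells, both without overlap. ND4 overlapped primary cells and COX3 overlapped senescent cells. The ratio of COX2 to COX1 was 1.21-fold that of senescent cells and 0.801-fold that of primary cells. ND5 to COX1 was 0.789-fold that of senescent cells and 1.19-fold that of primary cells, and CYTB to COX1 was 0.899-fold and 1.31-fold. Between immortalized and senescent cells 6 of the 8 ratios did not overlap (59.1% of all genes), and between immortalized and primary cells 5 of 8 (57.9% of all genes). Summed by complex, complex IV made up 63.7 ± 0.4% of the counts of the 9 members in primary, 58.3 ± 0.1% in senescent and 62.3 ± 0.2% in immortalized cells (SD, n = 3 each). Complex I made up 23.9 ± 0.3%, 26.5 ± 0.1% and 23.9 ± 0.2%, complex III 4.85 ± 0.10%, 6.62 ± 0.08% and 6.22 ± 0.07%, and complex V 7.50 ± 0.18%, 8.56 ± 0.12% and 7.60 ± 0.06% at the same stages. By these sums senescent cells had the lowest proportion of complex IV and the highest of the other complexes. Complexes III and V stand for 1 member each. For complexes I and V the immortalized libraries overlapped the primary ones. Members of a complex did not all move together between primary and senescent cells. Relative to the mean log2 count of the 9 members, COX1 (0.906-fold) and COX2 (0.598-fold) were lower in senescent cells without overlap. COX3 overlapped (1.01-fold). In complex I, ND4 and ND5 were higher, ND1 overlapped and ND2 was lower (0.875-fold).

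**Figure D4:**
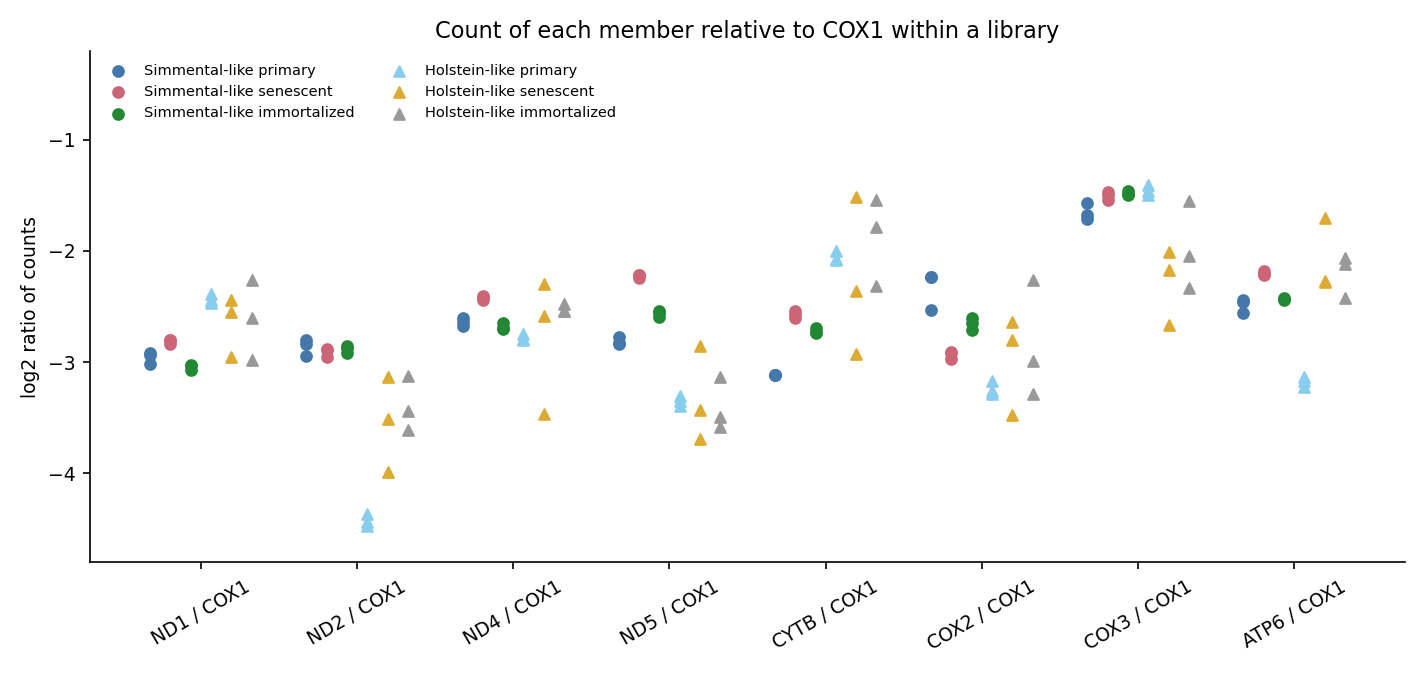
Log2 ratio of the count of each other member to that of COX1 within each library (circles Simmental-like, triangles Holstein-like, stages in the order primary, senescent, immortalized). Simmental-like replicates lie close together except for COX2 at the primary stage (-2.24, -2.53 and -2.23). In Simmental-like cells ND5 and CYTB are highest and COX2 lowest at the senescent stage. Holstein-like libraries of a stage spread widely except for the primary ones.

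The Holstein-like libraries differed more in composition than the Simmental-like ones. COX1 took 2.42%, 2.53% and 2.53% of counts in the muscle-rich primary libraries, 10.9%, 1.99% and 1.55% in senescent libraries 1, 2 and 3 and 1.83%, 6.62% and 2.69% in immortalized libraries 1, 2 and 3. COX2 took 0.270%, 0.264% and 0.260%, then 1.74%, 0.286% and 0.140%, then 0.187%, 1.38% and 0.338%. Both were highest in the heart-rich library and next highest in the kidney-rich library. The COX2 count as a percentage of the COX3 count was 29.6%, 28.8% and 28.9% at the primary stage, 64.7%, 64.7% and 57.1% at the senescent and 42.2%, 105% and 36.7% at the immortalized stage. In the Simmental-like line the same percentage was 56.7 to 68.1% in primary, 36.8 to 37.2% in senescent and 42.9 to 46.3% in immortalized libraries. The ND1 count was 392 to 409% of the ND2 count in the muscle-rich libraries and 144 to 226% in the other Holstein-like libraries, against 88.9 to 109% in the Simmental-like ones. The CYTB count was 142 to 387% of the ND5 count in Holstein-like libraries, against 77.9 to 90.4% in Simmental-like libraries. For both pairs no Holstein-like library reached into the Simmental-like range. The liver-rich libraries also differed among themselves, with CYTB at 0.697%, 0.204% and 0.533% of counts and ATP6 at 0.412%, 0.319% and 0.341% in senescent libraries 2 and 3 and immortalized library 1. Immortalized library 3, the one with abundant fibroblast markers, held CYTB at 176% of ND5 and ND1 at 144% of ND2. Line, the Rerun label and depth move together here. Tissue markers move with them except in immortalized library 3, whose fibroblast markers took 6.27%, within the 4.03 to 6.43% of Simmental-like libraries. The part of each in these ratios was not tested.

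The nuclear subunits of complex IV that exist in tissue forms gave a check of the muscle and heart markers. COX6A2, the heart and skeletal muscle form of subunit 6A, had 82.9, 84.5 and 75.8 CPM in the Holstein-like primary libraries and 605 CPM in the heart-rich library. It was at 0 in the other 14 libraries, where a count of 0 allows up to 0.129 to 0.273 CPM (3 counts). COX7A1, also a muscle and heart form, had 18.5, 21.1 and 28.1 CPM in the Holstein-like primary libraries and 606 CPM in the heart-rich library, against 1.32 to 14.02 CPM in the other 14. COX8B, a further such form, had 43.2, 45.0 and 42.8 CPM in the primary libraries and 741 CPM in the heart-rich one, against 1.80 to 16.7 CPM in the other 14. COX6A1, the form of most other tissues, had 149 to 235 CPM in Simmental-like libraries and 4.09 to 12.6 CPM in the muscle-rich ones. All 3 of COX6A2, COX7A1 and COX8B were thus higher in the 4 libraries rich in muscle or heart markers than in any other library, though COX7A1 and COX8B were not absent elsewhere.

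Of the 4 other protein-coding rows, 3 fell in senescent against primary Simmental-like cells, ND3 (-1.99 ± 0.57, edgeR adjusted p = 0.0176), ATP8 (-1.53 ± 0.52, edgeR adjusted p = 0.0343) and ND4L (-1.46 ± 0.50, edgeR adjusted p = 0.0347). Of all genes 29.7% fell. ND6, the one encoded on the other strand, had -1.26 ± 0.52 and did not pass (edgeR adjusted p = 0.0665). The same 3 fell between immortalized and primary cells (-1.57 to -1.75), where 25.5% of all genes fell, and 0 of the 4 passed between immortalized and senescent cells (0 at an unadjusted p under 0.05). On the total-count scale ND3 alone of the 4 fell in senescent cells, and ND4L alone in immortalized cells, against primary cells, where 14.1% and 16% of all genes fell. Without primary library 1 the TMM falls in senescent cells were smaller, at -0.84 for ND3, -0.47 for ATP8 and -0.49 for ND4L. These 3 passed and ND6 (-0.21) did not, where 34% of all genes fell. In immortalized against primary cells all 4 then fell (-0.31 to -0.62), where 31.4% of all genes fell. On total counts without that library ATP8 (-0.09) and ND4L (-0.10) did not pass in senescent cells. These rows overlap or adjoin members: ATP8 overlaps ATP6, ND4L overlaps ND4 and ND6 lies beside ND5, and the strand setting of the counting is not given in the sources used here. How reads were divided between such neighbours, and between mitochondrial genes and their copies in the nuclear genome, is therefore uncertain.

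The ratios of neighbouring rows differed between the Simmental-like and the Holstein-like libraries. Line, the Rerun label and depth move together here too, as do tissue markers except in the fibroblast-rich immortalized library 3. Their part was not tested. The ATP8 count was 21.9 to 25.5% of the ATP6 count in the 9 Simmental-like libraries. In Holstein-like libraries it was 0%, 0.0252% and 0.0751% at the primary, 6.94%, 9.40% and 7.72% at the senescent and 10.4%, 11.1% and 0.871% at the immortalized stage. The lowest of these were counts of 0, 1 and 3 beside ATP6 counts of 3962 to 4022. ND4L was 11.1 to 11.9% of ND4 in Simmental-like libraries, 0.171%, 0.0188% and 0.136% in the Holstein-like primary libraries and 5.51 to 10.7% in the other 6. ND6 was 27.1 to 29.8% of ND5 in Simmental-like libraries and 4.90 to 12.5% in 8 Holstein-like libraries, with 23.8% in the fibroblast-rich immortalized library 3. No Holstein-like library reached the Simmental-like range for any of the 3 pairs.

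**Figure D5:**
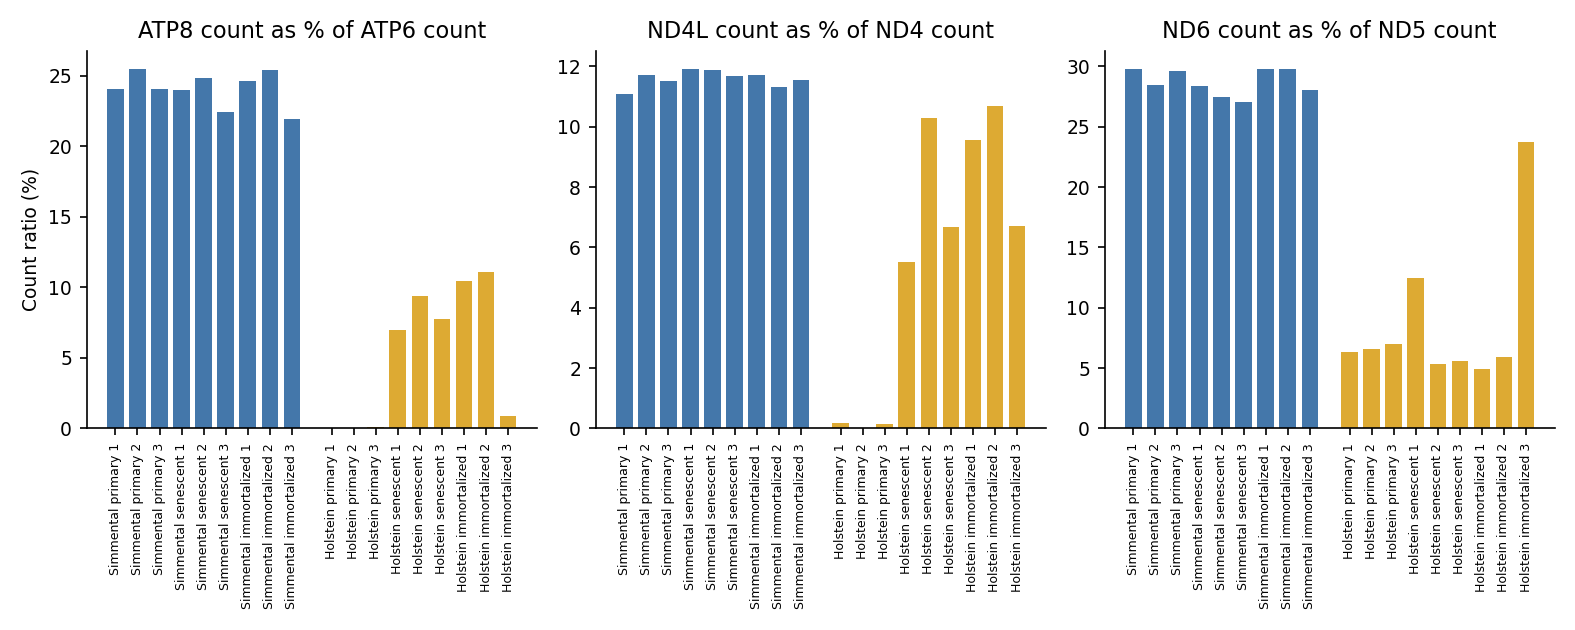
Count of ATP8, ND4L and ND6 as a percentage of the count of the neighbouring ATP6, ND4 and ND5 in each library (linear axes from 0, blue Simmental-like, ochre Holstein-like). Simmental-like libraries stay between 21.9% and 25.5%, 11.1% and 11.9%, and 27.1% and 29.8%, while the Holstein-like primary libraries are below 0.2% for the first 2 pairs.

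The nuclear partners of these proteins were taken from lists of genes by complex and function. Of the nuclear subunits of complex I, 28 of 37 tested fell and 1 rose in senescent against primary Simmental-like cells, with a median log2 change of -0.99, where 29.7% of all genes fell and 28.3% rose. NDUFB8 fell to 67.0 ± 3.5 CPM in senescent cells, against 175 ± 56 CPM in primary cells (-1.38 ± 0.21, edgeR adjusted p = 0.00083). Of complex III 9 of 9 fell (median -0.76), of complex IV 10 of 14 (median -1.01), of complex V 13 of 16 (median -0.94) and of complex II, which has no mitochondrially encoded subunit, 3 of 4 (median -0.63). COX7A2, a subunit of complex IV, fell by 1.26 ± 0.27 (edgeR adjusted p = 0.00461). Without primary library 1 the numbers that fell were similar, with 27, 8, 11, 14 and 3 in the order of complexes I, III, IV, V and II. There 34% of all genes fell. The falls were smaller, with medians of -0.52, -0.48, -0.43, -0.55 and -0.47 in the same order, so their sizes rested in part on that library. The scaling moved the numbers more. On the total-count scale 7 of 37, 0 of 9, 3 of 14, 5 of 16 and 0 of 4 fell, where 14.1% of all genes fell. On that scale the counts of complexes I and IV were near the share of all genes. Of the tissue forms of complex IV, 8 of 9 tested fell with TMM and 2 with total counts.

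Between immortalized and senescent cells few nuclear subunits passed, where 16.4% of all genes rose and 16.1% fell. In complex I 2 of 37 rose (NDUFV2 by 0.67 ± 0.12, edgeR adjusted p = 0.00316, and NDUFB5 by 0.48 ± 0.12), and in complex V 3 of 16 rose, among them ATP5G2 (0.51 ± 0.15, edgeR adjusted p = 0.0346), a count near the share of all genes. In complex III UQCRC1 rose (0.64 ± 0.20) and UQCRC2 fell (-0.54 ± 0.08), and in complex IV COX5A rose (0.64 ± 0.17, edgeR adjusted p = 0.0199, lost on the total-count scale at 0.138). Without primary library 1, 16 of 37 complex I subunits rose and 2 fell, where 28.7% of all genes rose and 29.9% fell. Against primary cells, 11 of 37 complex I, 6 of 9 complex III, 6 of 14 complex IV, 7 of 16 complex V and 3 of 4 complex II subunits fell in immortalized cells, with 6, 4, 4, 2 and 2 on the total-count scale, where 25.5% of all genes fell with TMM and 16% on total counts. UQCRC2 had 82.5 ± 3.1 CPM in immortalized and 168 ± 10 CPM in primary cells (-1.03 ± 0.09, edgeR adjusted p = 2.14e-05).

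Genes that serve mitochondrial DNA and RNA were called near or below the rate of all genes in each direction in senescent against primary cells, where 28.3% of all genes rose and 29.7% fell. Of 8 tested genes of mitochondrial transcription 1 rose and 2 fell. POLRMT, the mitochondrial RNA polymerase, rose in senescent cells to 51.9 ± 1.1 CPM, against 37.7 ± 3.8 CPM in primary cells (0.46 ± 0.11, edgeR adjusted p = 0.00738). MTERFD1 (-0.90), of the mitochondrial termination factor family, and TFB1M (-0.51), which methylates mitochondrial ribosomal RNA, fell, though neither did on the total-count scale. TFB2M, which opens the promoter for the polymerase, fell in immortalized against senescent cells by 0.32 ± 0.10 (edgeR adjusted p = 0.0465). Of 13 genes of mitochondrial DNA maintenance 1 rose and 4 fell in senescent cells, among them SSBP1, the single-strand binding protein (-1.36 ± 0.34, edgeR adjusted p = 0.00933). Of 21 genes of RNA processing and decay 5 rose and 4 fell. SLIRP, which with LRPPRC stabilizes mitochondrial messengers, fell by 1.06 ± 0.38 (edgeR adjusted p = 0.0393, lost on the total-count scale at 0.171). ALKBH1, an enzyme that modifies tRNAs in mitochondria, had 48.7 ± 2.3 CPM in immortalized and 19.2 ± 1.9 CPM in primary cells (1.34 ± 0.11, edgeR adjusted p = 1.72e-05).

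Of 14 translation factors 3 rose and 4 fell in senescent cells, near the 28.3% and 29.7% of all genes. MTRF1, a mitochondrial release factor, rose by 0.94 ± 0.11 (edgeR adjusted p = 0.000171) and its relative MTRF1L fell by 0.95 ± 0.17 (edgeR adjusted p = 0.002). Of 31 assembly factors 4 rose and 13 fell, with 6 and 4 on the total-count scale, and the median turned from -0.40 to 0.08. NDUFAF6, an assembly factor of complex I, had 24.3 ± 1.4 CPM in senescent and 10.01 ± 0.71 CPM in primary cells (1.28 ± 0.13, edgeR adjusted p = 8.54e-05). Between immortalized and senescent cells 2 maintenance genes rose and 1 fell, 4 RNA processing genes rose and 3 fell, 1 translation factor rose and 1 fell, and 5 assembly factors rose and 2 fell, where 16.4% of all genes rose and 16.1% fell. Against primary cells the immortalized cells had 2 maintenance genes higher and 2 lower, 3 and 2 RNA processing genes, 5 and 3 translation factors, 3 and 5 assembly factors, and 1 and 3 transcription genes, where 24.9% of all genes rose and 25.5% fell. Of the 7 PGC-1 coactivators and partners 3 rose and 1 fell in senescent cells. PPARGC1A, a coactivator of genes of oxidative metabolism, rose to 19.7 ± 1.6 CPM in senescent cells, against 4.03 ± 1.0 CPM in primary cells (2.30 ± 0.19, edgeR adjusted p = 3.08e-05), and fell to 2.16 ± 0.26 CPM in immortalized cells, a log2 change of -3.19 ± 0.20 against senescent cells (edgeR adjusted p = 1.62e-05). The other PGC-1 counts were 0 higher and 3 lower in immortalized against senescent cells, and 1 higher and 2 lower against primary cells.

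The balance of these lists depended on the scaling. On the total-count scale, where the median of all genes was 0.47 between senescent and primary cells, 3 transcription genes rose and 0 fell, 7 and 3 maintenance genes, 13 and 2 RNA processing genes, 9 and 1 translation factors and 5 and 0 PGC-1 genes did, where 45.4% of all genes rose and 14.1% fell. Between immortalized and senescent cells, where it was -0.16, 0 maintenance genes rose and 1 fell, as did 3 and 4 RNA processing genes, 0 and 2 translation factors and 4 and 3 assembly factors, where 11.5% of all genes rose and 20.6% fell. Between immortalized and primary cells, where it was 0.30, 1 transcription gene rose and 1 fell, as did 4 and 2 maintenance genes, 8 and 0 RNA processing genes, 7 and 1 translation factors and 7 and 1 assembly factors, where 35% of all genes rose and 16% fell. POLRMT, ALKBH1, MTRF1, NDUFAF6 and PPARGC1A, as named above, passed in the same direction on both scales.

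The genes whose pattern over the 9 Simmental-like libraries was most like that of the summed members were RPL36, a ribosomal protein, ATP5J2, a subunit of complex V, NDUFA3, a subunit of complex I, an unnamed gene (ENSBTAG00000046416) and ZNHIT1. Likeness was measured as the root mean square difference of centred log2(CPM + 1) among 8770 genes with a mean of at least 10 CPM, and these 5 lay between 0.139 and 0.178, against a median of 0.875. The members themselves lay between 0.0436 (COX1) and 0.293 (COX2). RPL36 had 862 CPM in primary library 1, against 257 and 382 CPM in primary libraries 2 and 3, so the high primary library weighs in this likeness.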

How the data were processed

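RNA of 18 libraries was sequenced, with RNeasy extraction, NEBNext Ultra II libraries and single NextSeq reads per the labels. The deposited values are expected counts per Ensembl gene, merged from salmon by the authors according to the table's name. The build was UMD 3.1 per the submitters' processing notes. Not given in the sources used here are the salmon version, annotation, strand setting and any ribosomal RNA or poly(A) selection. For testing, counts were rounded, since 1.01% to 7.18% of a library's values were not whole. A reference table of another build was used for names only, so no coordinates are given.

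Shares are percentages of a column's total and ratios are quotients of counts in 1 library. The 9 Simmental-like libraries were fitted together with edgeR 4.0.16 in R 4.3.3 (filterByExpr, TMM, robust quasi-likelihood F-test, Benjamini-Hochberg over 13099 genes, threshold 0.05), and SE is the absolute log2 change divided by the root of F. Alternatives were other scalings and filters, DESeq2 1.42.0, limma-voom 3.58.1, the 6 libraries compared, all 18, a replicate block and leaving out each library. 2 settings without primary library 1 were added after seeing the data. The code was tested on simulated counts. Members, lists and tests were chosen with earlier results of these data known. Named genes are the members, the other mitochondrial rows, of each list up to 4 genes past the threshold with the largest change, at least 10 CPM and groups without overlap, and the 5 genes most like the summed members. Only some of these are printed. Simmental-like senescent libraries 1 and 2 lay closest to each other (chi-square per gene of counts 1.36, against 3.49 and 3.96 for the other pairs of the group) and were kept apart, with their sum as an alternative.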

Additional observations from a re-analysis of the deposited data

Results flagged for a closer look

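In 5 results each Holstein-like library of the later stage lay on the opposite side of every primary library from the Simmental-like ones. They are the ones that met this rule among the ratios to COX1 and the shares of all 13 mitochondrial protein-coding rows, and the summed shares, in each pair of stages. How often other genes meet the rule was not counted. The 3 Holstein-like primary libraries lay close to each other (chi-square per gene 1.21 to 1.23), so they weigh little more than a single library. The differences below are the Holstein-like change minus the Simmental-like change, and none of them was tested. Each Holstein-like change is a difference of means over 3 libraries that hold markers of different organs, and the part of these in the differences was not tested. Values without 1 of those libraries were added after seeing the data. The log2 ratio of COX3 to COX1 changed by -0.83 in the Holstein-like and 0.15 in the Simmental-like line between senescent and primary stages, a difference of -0.98. Between immortalized and primary stages it changed by -0.52 and 0.17, a difference of -0.70, and the Holstein-like change was -0.34 without the kidney-rich library. The log2 ratio of ND3 to COX1 changed by 2.07 in the Holstein-like and -0.17 in the Simmental-like line between senescent and primary stages, a difference of 2.25. The share of ND3 changed by 0.385 and -0.0797 percentage points, a difference of 0.464. Without the heart-rich senescent library the Holstein-like change in the share of ND3 was 0.142, and in senescent library 3 it was 0.00590. The share of ATP8 changed by 0.0701 and -0.0491 percentage points between immortalized and primary stages, a difference of 0.119, where 0 to 3 ATP8 counts stood behind each Holstein-like primary value. Without the kidney-rich immortalized library the Holstein-like change in the share of ATP8 was 0.0205.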

How the results depend on the processing

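Counts of members that fell depended on the processing, and 13 of 621 values of single members under an alternative had the opposite sign to the main one, none of them past the threshold. With total counts without primary library 1, ND5 (0.25) and CYTB (0.22) turned positive for senescent against primary cells, CYTB (0.078) for immortalized against primary cells, and CYTB (-0.14) negative for immortalized against senescent cells. In that last comparison CYTB was also negative with total-count scaling (-0.14), upper-quartile scaling (-0.00081), senescent libraries 1 and 2 summed (-0.0067), and without senescent library 2 (-0.011) or immortalized library 3 (-0.12). Without immortalized library 1 or 2, ND1 (0.0042 and 0.015) and ATP6 (0.0022 and 0.0051) turned positive there. With 1 library left out the range there was -0.12 to 0.094 for CYTB, -0.19 to 0.015 for ND1 and -0.19 to 0.0051 for ATP6. For senescent against primary cells the main count of 7 was 3 with total-count scaling, 3 with limma-voom, 1 with the 6 libraries compared, 0 with all 18, 1 with senescent libraries 1 and 2 summed and 3 with total counts without primary library 1. Of all genes 14.1%, 28%, 22.5%, 5.85%, 22.5% and 17.6% fell under these settings in that order. Leaving out 1 library at a time gave 1 to 9, with 1 without any senescent library, 4 without immortalized library 1 or 2 and 9 without primary library 2. Of all genes 22.2 to 23.5% fell without a senescent library, 27.7% and 26.9% without immortalized library 1 or 2, and 33.8% without primary library 2. For immortalized against primary cells the main count of 6 was 2, 1, 0, 0, 3 and 3 under the same settings in that order, and 0 to 9 with 1 library left out (0 without immortalized library 1 or 2, 1 without the third, 3 without any senescent library, 9 without primary library 2). Of all genes 16%, 23.8%, 18.7%, 5.78%, 22.8% and 22% fell under those settings in order. It was 19.5%, 19.3% and 21% without immortalized library 1, 2 or 3, 22.7 to 22.8% without a senescent library and 31% without primary library 2. For immortalized against senescent cells the main counts of 0 became 1 higher (COX2) with the 6 libraries compared and with TMM without mitochondrial rows and without primary library 1, 0 to 1 higher with 1 library left out, and 1 lower (ND5) with total counts without primary library 1. Of all genes 32.7% rose with the 6 libraries, 28.7% rose with TMM without mitochondrial rows and without primary library 1, and 39.3% fell with total counts without it. DESeq2 called 9 of 9 lower in both comparisons with primary cells, where it called 32.2% and 28.3% of all genes lower in senescent and immortalized cells. With the replicate number as a block 2 and 0 members fell against primary cells, where 25.6% and 21.6% of all genes fell. Whether the numbers pair the libraries is not settled. Of the correlations of same-numbered deviations 2 of 9 passed 0.1 (range -0.45 to 0.16). Those of unlike-numbered libraries ran from -0.47 to 0.50, so this check cannot exclude a pairing. Over all genes, calls were 2025, 416 and 1800 with all 18 libraries for senescent against primary, immortalized against senescent and immortalized against primary cells. They were 5838 to 9042, 2888 to 7793 and 5191 to 8282 with 1 library left out. For immortalized against senescent cells they were 8600 with the 6 libraries, 7955 with total counts and 7793 with TMM without mitochondrial rows, both without primary library 1. The cause of these shifts was not tested. A count of 0 for ATP8 in Holstein-like primary library 1 allows a share of up to 0.000206% (3 counts, counting error only).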

Other observations

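Among the genes of mitochondrial DNA maintenance, MPV17 changed most. MPV17 is an inner membrane protein, and its loss in humans is linked to depletion of mitochondrial DNA. It had 0, 1 and 0 counts in the immortalized Simmental-like libraries, against 153, 141 and 127 counts in the senescent libraries, and 477, 538 and 481 counts in the primary libraries. The immortalized to senescent ratio was 0.00242 (95% exact interval 6.11e-05 to 0.0135, counting error only). With TMM scaling MPV17 fell in senescent against primary cells by 2.25 ± 0.20 (edgeR adjusted p = 3.91e-05). POLG, the catalytic subunit of the mitochondrial DNA polymerase, had 85.9 ± 4.9 CPM in immortalized and 66.5 ± 2.0 CPM in senescent cells (0.37 ± 0.09, edgeR adjusted p = 0.0146, lost on the total-count scale at 0.226). The near absence of MPV17 did not extend to the Holstein-like immortalized libraries, with 407, 254 and 338 counts. Holstein-like senescent libraries had 206, 411 and 416 MPV17 counts, and the shallower primary ones 5, 4 and 5.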
